A study of Caenorhabditis elegans with 4 samples.

Results

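Chromosome V held 1807 of the 10512 nuclear CHD-3 peaks in the peak list that covers the whole series, and these 1807 peaks were taken by their chromosome name alone. Beside them stood the V peaks of each ChIP library's own list, 816 of 4822 in replicate 1 and 326 of 1889 in replicate 2. The comparison was with the other nuclear chromosomes, I, II, III, IV and X. CHD-3 was mapped by chromatin immunoprecipitation and sequencing (ChIP-seq) in whole adult Caenorhabditis elegans hermaphrodites of the strain fem-2(b245), which carries that allele on chromosome III and was kept at 20 °C. The labels list 2 ChIP libraries, made with an affinity-purified rabbit polyclonal antibody (SDQ3907), and 2 input libraries, and all 4 share this genotype and temperature. The stage is given as young adult with a germline, while the growth protocol describes gravid animals. Neither the input libraries nor any library from animals without CHD-3 were analysed here. Each list averages over every tissue of the animal.

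CHD-3 is one of the Mi-2 chromatin-remodelling ATPases of this worm, alongside LET-418. Mi-2 proteins move nucleosomes and act with histone deacetylases in NuRD complexes, which are known for repressing transcription. FEM-2 is a protein phosphatase needed for male development. The autosomes of C. elegans have gene-dense centres with little recombination, and arms that recombine more and hold more repeats. The arms of V are known for large, fast-changing gene families, among them many chemoreceptor genes. The peaks are on the WS220 build, for which no gene annotation or genome was used here, so sites are given by position and no gene is named.

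Chromosome V carried fewer CHD-3 peaks per megabase than any of the other nuclear chromosomes in all 3 lists. The density on V was 39.0 peaks per Mb in replicate 1, against 50.5 on the other 5 chromosomes together. In replicate 2 it was 15.6 on V against 19.7 on the others, and in the series-level list 86.4 against 109.7. The ratio of V to the others was 0.77 in replicate 1 and 0.79 in replicate 2, a mean of 0.78 ± 0.013 (SD, n = 2), and 0.79 in the series-level list. The distance of this mean from 1 was larger than the spread between the replicates, which does not measure how chromosomes vary. Chromosome IV came next, with 41.7 and 17.3 peaks per Mb in replicates 1 and 2. With 2 libraries and a single chromosome set against 5, no test of these differences was made, and the values of V are descriptions. Covered length was lower on V as well. Peaks covered 9.35% of V in replicate 1, against 12.5% of the others, and 3.35% against 4.14% in replicate 2. In the series-level list they covered 4.56% of V against 5.91% of the others.

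In replicate 1 both arms of V were sparser than its centre, the right arm most of all. Arms were taken as the outer 25% of the chromosome on each side, so that together they hold 50% of its length. The right arm of V runs from 15693130 to 20924172, the left arm from 1 to 5231043, and the centre lies between them. In replicate 1 the right arm held 124 peaks, or 23.7 per Mb, and the left arm 164, or 31.4 per Mb, against 528 in the centre, or 50.5 per Mb. On the other chromosomes together the same list had 44.8 peaks per Mb in right arms and 38.3 in left arms, against 59.4 in centres. The right arm of V was thus the sparsest of the 18 arms and centres in replicate 1. The arms of V held 35.3% of its peaks in that list (95% exact Clopper-Pearson interval 32.0 to 38.7%), against 41.1% (39.6 to 42.7%) on the others. Such intervals take each peak as independent and show counting error alone.

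Replicate 2 gave another picture of the same chromosome. Its right arm held 91 peaks, or 17.4 per Mb, and its left arm 54, or 10.3 per Mb, against 181 in the centre, or 17.3 per Mb. The right arm was therefore as dense as the centre in replicate 2, while it had less than the left arm in replicate 1. The left arm of V was the sparsest of the 18 regions in replicate 2. Its arm share was 44.5% (39.0 to 50.1%), against 47.4% (44.9 to 49.9%) on the others. Over both replicates the arm share of V was 39.9 ± 6.49% (SD, n = 2), against 44.3 ± 4.43% on the other chromosomes. Taken within each library, V minus the others was -5.84 percentage points in replicate 1 and -2.93 in replicate 2, a mean of -4.39 ± 2.06 (SD, n = 2). The series-level list gave -8.72. The difference had the same sign in both libraries and its mean was larger than its spread, but 2 libraries allow no test. Single other chromosomes had arm shares from 37.8% on II to 47.3% on X in replicate 1. In replicate 2 they ran from 43.4% on IV, below V, to 50.3% on II. At the series level they ran from 41.3% on I to 47.3% on X. A low arm share was thus not particular to V in replicate 2. The series-level list had 64.0 peaks per Mb in the right arm and 57.7 in the left arm, against 111.8 in the centre of V.

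**Figure D1:**
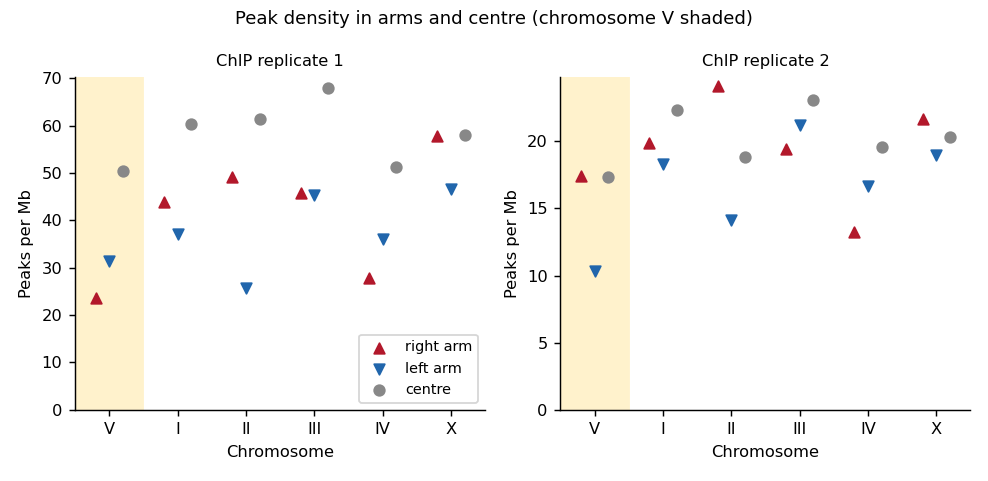
Peaks per Mb (vertical axis) in the right arm, left arm and centre of each nuclear chromosome (horizontal axis), for ChIP replicate 1 (left panel) and replicate 2 (right panel), with V shaded. The right arm of V is the lowest point in replicate 1, at 23.7 peaks per Mb, and sits beside the centre in replicate 2, at 17.4 against 17.3.

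The balance of the arms of V depended on the replicate. The ratio of right to left arm density was 0.76 in replicate 1 and 1.69 in replicate 2, so the order of the arms turned round. The mean of 1.22 ± 0.66 (SD, n = 2) lies within the spread between replicates of 1, and the series-level list gave 1.11. On the other chromosomes the replicates differed less. The ratio was 1.92 and 1.70 on II, 1.24 and 1.14 on X, 1.18 and 1.09 on I, and 0.77 and 0.79 on IV in replicates 1 and 2. On III it was 1.01 and 0.92, close to even in each. Counted another way, replicate 2 had 0.73 peaks for each replicate 1 peak in the right arm of V, against 0.33 in its left arm and 0.34 in its centre. Over the 15 regions of the other chromosomes this number ran from 0.31 to 0.55, with a median of 0.42.

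Windows of 1 Mb placed the difference between the replicates. Over the 20 full windows of V, the count ran from 14 to 68 in replicate 1 (median 34) and from 5 to 27 in replicate 2 (median 14.5). On the other chromosomes the medians over 77 windows were 50 and 20. The fullest window of V in replicate 1 ran from 10000001 to 11000000, near the middle, with 68 peaks, where replicate 2 had 26 and the series-level list 146. Series-level peaks were most frequent from 6000001 to 7000000, with 153 peaks, beside 58 in replicate 1 and 21 in replicate 2. The next window, from 7000001 to 8000000, was a dip in all 3 lists, with 31 peaks in replicate 1, 10 in replicate 2 and 58 at the series level.

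Replicate 2 was fullest far out in the right arm. The windows from 18000001 to 19000000 and from 19000001 to 20000000 each held 27 of its peaks, while replicate 1 had 23 and 22 there. These 2 windows of V were the only ones of the 97 full nuclear windows in which replicate 2 had at least as many peaks as replicate 1. Replicate 2 was emptiest at the left end, with 5 peaks from 1 to 1000000, where replicate 1 had 30. Replicate 1 was emptiest from 17000001 to 18000000, with 14 peaks, where replicate 2 had 8. The series-level list was emptiest from 16000001 to 17000000, with 39 peaks.

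**Figure D2:**
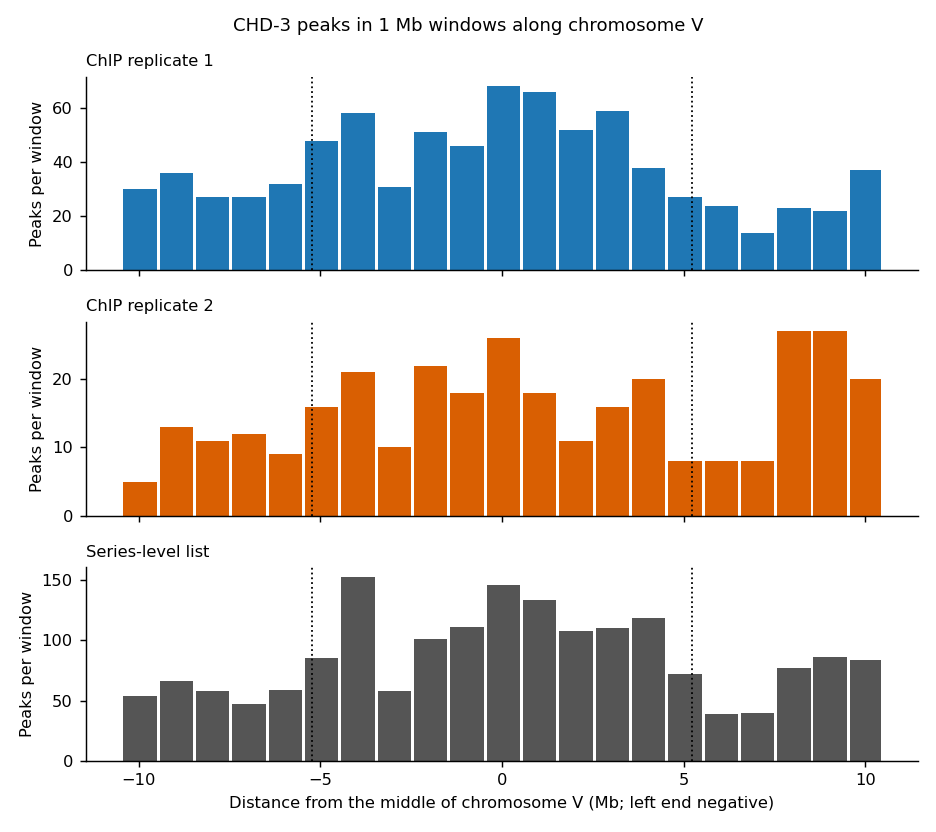
Number of CHD-3 peaks by midpoint (vertical axes, each with its own scale) in 1 Mb windows along V, plotted by distance from the middle of the chromosome, for ChIP replicate 1, ChIP replicate 2 and the series-level list. Dotted lines mark the arm borders, and the rightmost window is shorter than 1 Mb; the pair of tall windows of 27 peaks in the right arm of replicate 2 stands over windows of 23 and 22 peaks in replicate 1.

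A smaller share of replicate 2 peaks had a partner in replicate 1 on V than on the other chromosomes, and among these peaks the right arm had the lowest share. Of the 326 V peaks of replicate 2, 260 overlapped a replicate 1 peak by at least 1 bp, or 79.8% (75.0 to 84.0%), against 1417 of 1563 on the others, or 90.7% (89.1 to 92.1%). The share over all nuclear peaks was 88.8%. V had the lowest share of the 6 chromosomes, with II next at 87.6% (83.2 to 91.2%) and X highest at 93.9% (90.9 to 96.1%). In the right arm of V, 53 of 91 peaks had a partner, or 58.2% (47.4 to 68.5%). In its left arm 42 of 54 did, or 77.8% (64.4 to 87.96%), and in its centre 165 of 181, or 91.2% (86.0 to 94.9%). The right arms of the other chromosomes together had 88.9% (85.4 to 91.9%), and single ones between 81.3% and 95.5%. Without its right arm, V had 88.1% (83.2 to 91.9%).

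**Figure D3:**
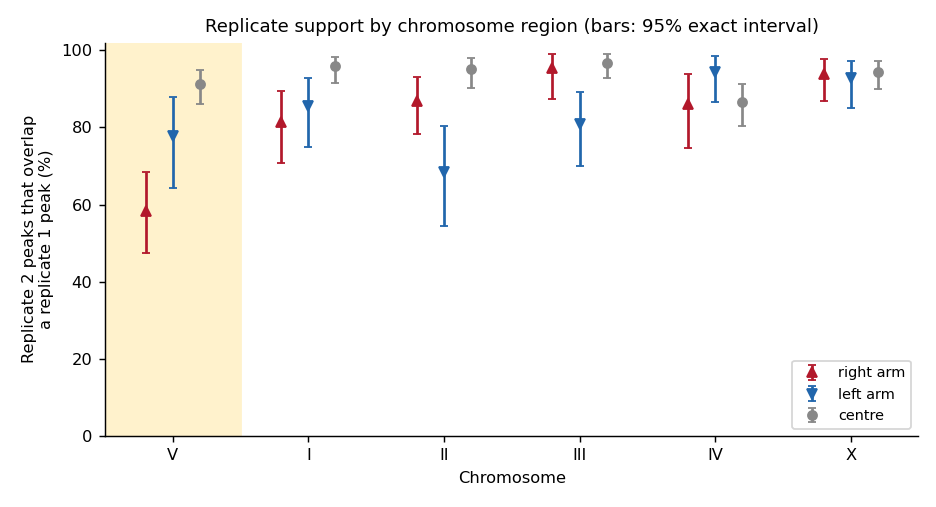
Share of replicate 2 peaks that overlap a replicate 1 peak by at least 1 bp (vertical axis, percent) in the right arm, left arm and centre of each chromosome, with 95% exact intervals as bars and V shaded. The right arm of V lies lowest at 58.2%, and the left arm of II is next at 68.5%.

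The low share was concentrated in the outer right arm but did not reach the tip. From 18000001 to 20000000, 26 of 54 replicate 2 peaks had a partner, or 48.1% (34.3 to 62.2%). This stretch was picked after its counts were seen, because replicate 2 had at least as many peaks there as replicate 1. That choice favours a low share, so the value and its interval are descriptions only. From 20000001 to the right end, 18 of 20 replicate 2 peaks had a partner, or 90% (68.3 to 98.8%). From 17000001 to 18000000 it was 3 of 8, or 37.5% (8.52 to 75.5%). Leaving 18000001 to 20000000 out of the right arm raised its share to 73.0%, a rise that the same choice favours. On V 3 of 20 windows had a share below 60%, against 1 of 77 on the other chromosomes.

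The sites of the right arm that replicate 1 lacked were not confined to low-scoring peaks of replicate 2. Each peak carries a score from the authors' peak caller, whose scale no source names, so scores serve only to rank peaks within a list. In the right arm of V the median replicate 2 score was 175 for the 53 peaks with a partner and 152 for the 38 without. Split at the median score of all nuclear replicate 2 peaks, 56.9% (42.2 to 70.7%) of the higher-scoring and 60% (43.3 to 75.1%) of the lower-scoring peaks of this arm had a partner. Widths were close as well, with medians of 1594 bp with a partner and 1588 bp without. Of the 38 peaks without a partner, 37 overlapped a series-level peak, beside all 53 of those with a partner. On the other chromosomes 99.4% of replicate 2 peaks did, and the same reads may underlie both lists. For the 38 peaks without a partner, the nearest replicate 1 peak lay a median of 11.7 kb away, with 9 within 2 kb and 5 over 50 kb. The V peak of replicate 2 with the highest deposited score, at 17308126 to 17312030 (3905 bp, score 3167), had no partner. In replicate 2, 5 V peaks share a score of exactly 3100, and whether they rank below it is uncertain. Those starting at 3434149, 3652530, 7916448 and 15320195 each overlapped a replicate 1 peak. Further high peaks without a partner stood at 17617744 to 17619583 (score 750), 18886742 to 18889682 (score 724) and 18877328 to 18879219 (score 636).

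Replicate 1 covered little of this arm, and a replicate 2 peak meets fewer replicate 1 peaks where these are sparse. Replicate 1 covered 4.47% of the right arm of V and 5.82% of the left arm, against 13.6% of the centre. The left arm of II, with 4.93% covered, had a partner share of 68.5% (54.4 to 80.5%), and the right arm of IV, with 5.80%, had 86.2% (74.6 to 93.9%). The part of this sparsity in the low share on V was not tested.

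Seen from replicate 1, V differed less from the rest. Of its 816 V peaks, 231 overlapped a replicate 2 peak, or 28.3% (25.2 to 31.5%), against 31.1% (29.7 to 32.6%) on the others and 30.6% over all nuclear peaks. Within V the right arm had the highest share, 38.7% (30.1 to 47.9%), the left arm 25% (18.6 to 32.3%) and the centre 26.9% (23.2 to 30.9%). On the other chromosomes together it was 35.3% in right arms, 34.9% in left arms and 28.3% in centres. The right arm of V thus lay near other right arms, such as that of II at 39.9%, and its left arm lay below other left arms. The replicate 1 peaks of V with a partner were 2578 bp wide at the median, against 1416 bp for the 585 without, and their median scores were 1378 and 208. This contrast was widest in the centre, where medians were 3379 bp with a partner and 1540 bp without. In the right arm they were 1824 bp and 1208 bp, and in the left arm 2010 bp and 1311 bp.

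On V, 200 sites paired 1 peak of each replicate with a single peak of the other. Replicate 1 drew the wider peak at 170 of them, with a median of 2455 bp, against 1647 bp for replicate 2. In the right arm the widths were closer, 1728 bp and 1569 bp over 40 pairs, with replicate 1 wider at 24. The midpoints of paired peaks lay a median of 101 bp apart in the right arm and 142 bp in the left arm, against 297 bp in the centre.

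Series-level peaks of V were found in both replicates at a share close to that over all nuclear peaks. On V 434 of 1807 overlapped both, or 24.0% (22.1 to 26.1%), against 26.4% (25.4 to 27.3%) on the other chromosomes and 26.0% over all nuclear peaks. Replicate 1 alone matched 50.7% of V peaks, against 53.3% on the others and 52.9% over all. Replicate 2 alone matched 4.59% (3.67 to 5.66%), against 2.85% (2.51 to 3.22%) on the others and 3.15% over all. Neither matched 20.6% (18.8 to 22.6%), against 17.4% (16.7 to 18.3%) on the others and 18.0% over all. Since the same reads may underlie several lists, these shares describe how the lists relate.

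Within V these classes shifted along the chromosome. In the right arm 51 of 335 series-level peaks matched replicate 2 alone, or 15.2% (11.6 to 19.5%), and 12 of 302 in the left arm, or 3.97%, against 20 of 1170 in the centre, or 1.71%. On the other chromosomes the highest such share was 12.4%, in the left arm of II. Replicate 1 alone matched 29.3% of right-arm peaks and 50.7% of left-arm peaks, against 56.9% in the centre. Peaks matched by neither replicate made up 33.7% of the right arm and 24.8% of the left arm, against 15.8% of the centre. The other chromosomes shifted the same way. There replicate 1 alone matched 48.1% in right arms and 45.4% in left arms, against 58.5% in centres. Neither matched 21.8% in their right arms and 24.1% in their left arms, against 13.2% in their centres. The share matched by neither reached 31.7% in the left arm of II. From 18000001 to 20000000, 41 of 163 series-level peaks matched replicate 2 alone, out of 83 such peaks on V. Over all nuclear peaks 3.15% did. This stretch was picked because replicate 2 had at least as many peaks there as replicate 1, a choice that favours this class. On V the median series-level score was 6.89 in the right arm and 6.80 in the left arm, against 6.34 in the centre. Peaks of V in both replicates scored 13.9 at the median, against 4.82 for those in neither, and their median widths were 715 and 215 bp.

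**Figure D4:**
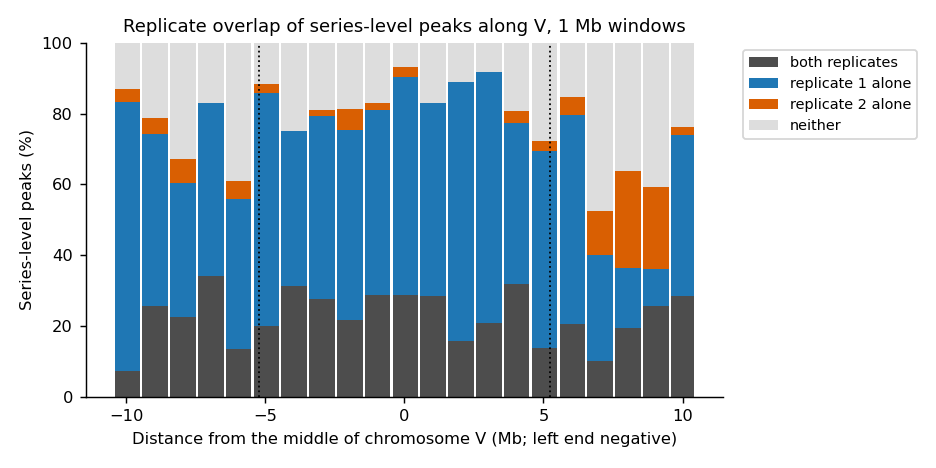
Share of series-level peaks (vertical axis, percent) that overlap both replicates, replicate 1 alone, replicate 2 alone or neither, in 1 Mb windows along V by distance from the middle of the chromosome, with dotted lines at the arm borders. The share matched by replicate 2 alone is visible mainly in the outer right arm, where 51 of 335 peaks of the whole arm fall in that class.

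Long stretches without any peak were more frequent on V than on the other chromosomes together, and in replicate 1 most of them lay in the arms. Replicate 1 had 37 stretches of 100 kb or more without a peak on V, or 1.77 per Mb, against 0.83 per Mb on the others. In replicate 2 there were 74, or 3.54 per Mb, against 3.11, with IV level at 3.54. The series-level list had 23, or 1.10 per Mb, against 0.39. In replicate 1 these stretches filled 47.5% of the right arm and 35.2% of the left arm, against 10.1% of the centre. In replicate 2 they filled 73.4% of the right arm and 74.9% of the left arm, against 52.96% of the centre. No such shares by region are given here for the other chromosomes, whose arms were also sparser than their centres in replicate 1. The excess in the arms is therefore not shown to be particular to V.

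The longest empty stretches of V were in part shared by the replicates. In replicate 1 the longest ran over 284 kb in the left arm, from 2330935 to 2614646, where replicate 2 had 1 peak at its edge and the series-level list 8 peaks. The next 4 lay in the right arm. The first of these, from 19624846 to 19897141 (272 kb), met 6 replicate 2 peaks, all near its edges, so that 258 kb from 19630834 to 19888563 was free of peaks in both replicates. The series-level list had 18 peaks in the longer stretch and 11 in the shared one. The stretch from 19200536 to 19444994 (244 kb) met 3 replicate 2 peaks and 17 of the series-level list. Those from 17519866 to 17721239 (201 kb) and from 17159991 to 17344761 (185 kb) each met 1 replicate 2 peak.

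In replicate 2 the longest empty stretch was 505 kb in the right arm, from 15768029 to 16272812, where replicate 1 had 11 peaks. The left arm followed with 456 kb from 267709 to 723679, where replicate 1 had 17 peaks, 341 kb from 2331149 to 2672044 and 292 kb from 3757795 to 4049542. A stretch of 327 kb in the centre, from 7115441 to 7442618, held 7 peaks of replicate 1. The stretch shared by both replicates in the left arm, from 2331149 to 2614646, was the longest on V free of peaks in both, at 283 kb, and still held 8 series-level peaks.

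Some stretches were empty in all 3 lists. There were 20 of 100 kb or more on V, which together filled 18.2% of the right arm and 18.6% of the left arm, against 4.80% of the centre. Matching shares for the other chromosomes are not given here. The longest on V, 167 kb from 7248612 to 7415894, lay in the centre, inside the dip seen in the window counts. The others of the 5 longest lay in the arms, at 3804064 to 3969306 (165 kb), 17159991 to 17308125 (148 kb), 16967294 to 17115008 (148 kb) and 4195025 to 4332777 (138 kb). How well reads map in these stretches was not examined. The longest single empty stretches of the series-level list, 194 kb from 7237445 to 7431491 and 176 kb from 17132125 to 17308500, overlap the first and the third of these. Its next longest, at 3803611 to 3969542, 16966976 to 17115414 and 4195025 to 4333177, overlap the remaining 3.

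Peaks of V were narrower in the arms than in the centre in both replicates. In replicate 1 the median width was 1341 bp in the right arm and 1393 bp in the left arm, against 1759 bp in the centre. In replicate 2 it was 1594 bp and 1569 bp, against 1852 bp. The ratio of arms to centre was 0.78 and 0.85, a mean of 0.82 ± 0.047 (SD, n = 2), whose distance from 1 was larger than the spread between replicates. The other chromosomes gave means between 0.77 on I and 0.92 on X, so V lay within their range. In the series-level list, with 310 bp in the right arm and 335 bp in the left arm against 332 bp in the centre, the ratio was 0.95. Over the whole of V the median width was 1592 bp in replicate 1, against 1727 bp on the other chromosomes. In replicate 2 it was 1708 bp on V against 1679 bp, and in the series-level list 327 bp against 336 bp.

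In replicate 1 wide peaks sat more often in the centre of V than its peaks in general. Of its 72 replicate 1 peaks of 5 kb or more, 6 lay in the right arm and 7 in the left arm, against 59 in the centre. Replicate 2 had 12, with 2 in the right arm and 3 in the left arm, against 7 in the centre. The centre thus held 81.9% (71.1 to 90.02%) of the wide peaks in replicate 1, beside 64.7% of all its V peaks. In replicate 2 it held 58.3% (27.7 to 84.8%) of the wide peaks, near the 55.5% of all. On the other chromosomes together, centres held 244 of 350 wide replicate 1 peaks, beside 2358 of all 4006. Centres thus held an excess of wide peaks there as well. The share of such peaks on V was 8.82% in replicate 1 and 3.68% in replicate 2, against 8.74% and 3.71% on the others.

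**Figure D5:**
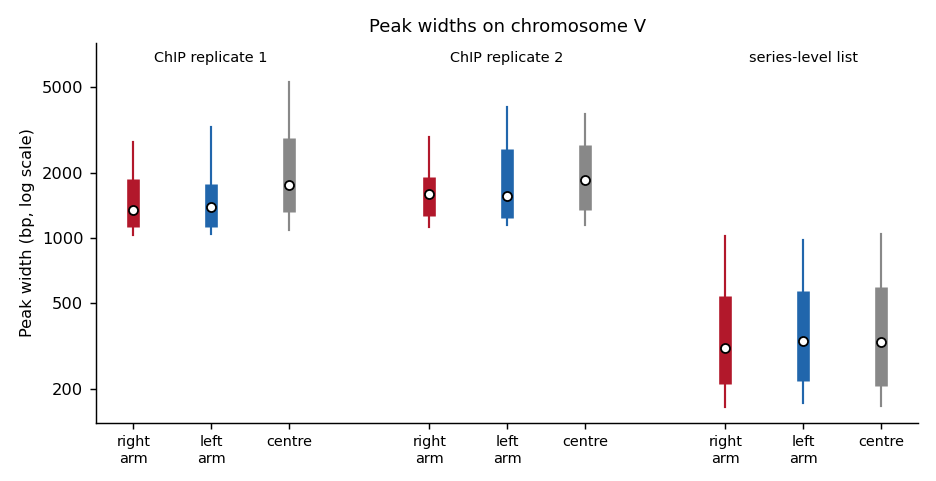
Widths of V peaks (vertical axis, bp on a log scale) in the right arm, left arm and centre for both ChIP replicates and for the list of the whole series. Open circles are medians, thick bars the middle 50% of peaks and thin lines the 10th to 90th percentiles; arm medians lie below the centre in both replicates, at 1341 and 1393 bp against 1759 bp in replicate 1.

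The widest replicate 1 peak of V, 27024 bp at 9072702 to 9099725 in the centre, met 3 replicate 2 peaks, the widest of them 7350 bp, and 17 series-level peaks. Among the widest series-level peaks, that at 6222809 to 6231138 (8330 bp) lay within a replicate 1 peak of 14974 bp and met 2 replicate 2 peaks. The next, 8207 bp at 7916821 to 7925027, was enclosed by a replicate 1 peak of 9957 bp and a replicate 2 peak of 9018 bp. In the left arm a peak of 6752 bp at 3434499 to 3441250 was enclosed by replicate peaks of 7550 bp and 7524 bp, with nearly the same borders in both replicates. In the right arm a peak of 6685 bp at 17119908 to 17126592 was enclosed by a replicate 1 peak of 7902 bp and a replicate 2 peak of 13138 bp. The widest of all on V, at 10714977 to 10724202, had 9226 bp.

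The strongest shared sites of V were spread over centre and arms. By series-level score the first 4 that both replicates held lay in the centre, at 15320518 to 15321703, 9545956 to 9547869, 6072130 to 6072983 and 6088720 to 6089399, with scores of 114.3, 101.0, 99.7 and 97.2. The fifth was the strongest of the right arm, at 19933020 to 19934097 with a score of 76.3. It matched a replicate 1 peak of 1740 bp (score 853) and a replicate 2 peak of 1923 bp (score 3100), and lies to the right of the 272 kb stretch that replicate 1 left empty. A second right-arm site, at 18345760 to 18346383 (66.7), had replicate scores of 775 and 257. The strongest left-arm site, at 3519986 to 3520909 (64.7), had 3159 and 619. A left-arm site at 3652750 to 3655731 (61.4) scored 3100 in each replicate, over peaks of 3771 bp and 3445 bp. The remaining 2 of the first 10 were centre sites at 10341691 to 10342293 (71.0) and 14849383 to 14851074 (66.4).

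The value 3100 recurs exactly in the replicate lists, so peaks that carry it cannot be ranked against each other. Their order against higher scores is uncertain as well, since no source names the scale. On V, 73 replicate 1 peaks had it, 6 in the right arm and 9 in the left arm, against 58 in the centre. That was 8.95% of its V peaks, the lowest share of the 6 chromosomes in replicate 1, where the others ran from 9.79% on II to 13.3% on III. In replicate 2 V had 5 such peaks, or 1.53%, beside 4 on X, or 1.11%. These counts are too small to rank the chromosomes.

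Among series-level peaks that replicate 1 did not hold, the 3 strongest of each class were looked up. Of those that matched replicate 2 alone, the first 2 were neighbours at 17117774 to 17118917 (35.2) and 17115415 to 17116102 (34.5), and the next was in the centre near the left border, at 5283248 to 5285862 (32.9). The replicate 2 peak under the site at 17117774 ended at 17119384. That was shortly before a replicate 1 peak of 7902 bp, which began at 17119516. Of those that matched neither replicate, the first was at the very right end, 20923820 to 20924172 (25.8). The next 2 lay close together at 17389834 to 17389999 (25.1) and 17384140 to 17385272 (24.3).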

How the data were processed

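Peak lists are the only data used here; no read counts or coverage entered, so the depth of each library is unknown. The submitters' processing notes name the aligner BWA, without a version, and the ce10 build. Per the file headers, coordinates are in the WormBase WS220 build, and the deposited source fields name MACS for each replicate and MACS v2 for the series-level list. Its thresholds, its way of combining libraries and the use of inputs were not given in the sources used here. The score of each peak is as deposited by the authors, with no scale named.

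Chromosome length was the highest peak end over the 3 lists. It was not checked against the WS220 sequence, so the last series-level peak of V may run past the chromosome end. Peaks were assigned to regions and windows by midpoint. Partners shared at least 1 bp. Shares carry 95% exact Clopper-Pearson intervals. No test was made: neighbouring peaks are not replicates, and the labels do not say whether the ChIP libraries came from separate cultures. The measures were checked on simulated lists. Regions named were the 10 highest-scoring shared sites, the widest peaks, the strongest site of each arm, the longest empty stretches, the extreme windows and the strongest sites outside the shared class; the unpartnered right-arm peaks were picked after their values were seen. Members, rules and lists were chosen with earlier results of these data known. Alternatives covered overlap rule, score, covered length, arm borders, merging, the set of other chromosomes and each replicate. The tools were Python 3.11.15 with scipy 1.17.1, numpy 2.4.6, pandas 2.3.3 and matplotlib 3.10.9.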

Additional observations from a re-analysis of the deposited data

How the results depend on the processing

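Of 43 alternatives to 11 values, 26 kept within the replicate spread or the exact interval, 16 moved and 1 reversed. Of these alternatives 5 were chosen after seeing the data. Leaving out either replicate was bound to stay within the spread, since each of 2 values lies within the SD of their mean. Such alternatives could only keep or reverse. The spread of the right to left arm ratio, 0.66 around 1.22, was so wide that keeping within it says little. The density ratio of V to the others ran from 0.77 to 0.79 without either replicate, was 0.75 in the upper 50% by score and 0.80 against the other autosomes only. The arm share of V ran from 35.3 to 44.5% without either replicate. With arms widened to 66.6% of the length it was 58.5%. This was judged as share of peaks over share of length, 0.88 against 0.80 ± 0.13 (SD, n = 2) for the narrower arms. The right to left arm ratio ran from 0.76 without replicate 2, which turns its direction, to 1.69 without replicate 1. The width ratio of arms to centre ran from 0.78 to 0.85 without either replicate and was 0.95 in the series-level list. The share of replicate 2 V peaks with a partner was 49.4% with a 50% reciprocal overlap, 34.4% for midpoints within 250 bp and 67.9% with both lists limited to their upper 50% by score, against 53.0%, 40.8% and 84.9% on the other chromosomes. For the right arm of V it was 44.0%, 29.7% and 39.2%. Under the reciprocal and midpoint rules this arm thus lay nearer to all V than under the 1 bp rule, with 58.2% against 79.8%. In the upper 50% by score it lay well below all V. Without 18000001 to 20000000 its share under the 1 bp rule was 73.0%, a rise favoured by how that stretch was picked. For replicate 1 V peaks the reciprocal rule gave 19.7% and the midpoint rule 13.7%. In the upper 50% by score both replicates held 38.3% of series-level V peaks. In that upper 50% the longest empty stretch of V was 914 kb in replicate 1, 1223 kb in replicate 2 and 271 kb in the series-level list; fewer peaks were left to break it. No paired analysis was possible because the inputs entered without peaks of their own to compare. Depth is unknown, so the lower count of replicate 2 cannot be read further.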

Other observations

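The ends of V differed between the lists. At the left end replicate 2 had a peak of 784 bp from the first base (score 433) and the series-level list one of 383 bp (20.7), while the first replicate 1 peak began at 7837 and was 3945 bp wide (score 2753). At the right end the last series-level peak reached 20924172, the position taken as the end of V and not checked against the build. The last replicate 1 peak ended at 20904437 and the last replicate 2 peak at 20794538.

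The spacing of neighbouring peaks along V also differed between the replicates. In replicate 2 the median distance between midpoints was 13.5 kb in the right arm and 65.9 kb in the left arm, against 39.7 kb in the centre. In replicate 1 it was 19.6 kb in the right arm and 15.0 kb in the left arm, against 10.6 kb in the centre. The right arm thus had the closest spacing of V in replicate 2 and the widest in replicate 1. In the series-level list the distances were 3.92 kb in the right arm and 5.72 kb in the left arm, against 2.08 kb in the centre. These are descriptions, and no test was made of them.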
